A study of Mus musculus with 4 samples.

Results

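The Mycn-locus-high cells were 228 tumour cells of an allograft of the mouse cell line preSC, from the library labelled preSC_WT, chosen by the RNA of 4 neighbouring genes. A cell was a member when its barcode held at least 1000 genes, at most 15% of its unique molecular identifiers (UMIs, the counted RNA molecules) from mt- genes and no UMI of Ptprc, Col1a1 or Pecam1, markers of leukocytes, fibroblasts and endothelium. It also held at least 1 UMI of Mycn and at least 4 UMIs summed over Ddx1, Nbas and Fam49a. The library had 18559 barcodes, of which 12337 passed the gate on genes, mt- share and the 3 host genes. The 228 members were 1.85% of those (95% Clopper-Pearson interval 1.62% to 2.10%, counting error only), in a series of 56220 barcodes. They were set against 9869 other tumour cells of the same library, which passed the gate, held no Mycn UMI and at most 1 UMI of Pvt1, and held fewer than 2 UMIs over a list of blood, stromal and vessel genes. The remaining 2240 gated cells were in neither group.

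The series profiled small cell lung cancer of mice by droplet single-cell RNA-seq (10x Genomics, 3′ chemistry) in 4 libraries. They were allografts of preSC cells labelled CracdKO, allografts of preSC cells labelled WT, and lung tumours labelled CRPR2 and RPR2, names that the labels do not spell out. Each of the 4 groups was 1 library. The labels give neither the host strain, the age of the animals nor whether tumours were pooled. All members came from 1 library, so every interval here covers counting error only and no test between tumours was possible.

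Mycn encodes a Myc family transcription factor that drives growth and proliferation genes, and its gene is copied many times over in a share of neuroblastomas and small cell lung cancers. Ddx1, an RNA helicase gene, and Nbas, a gene of Golgi-to-endoplasmic-reticulum transport, lie next to Mycn and are often copied along with it in human neuroblastoma. Fam49a, called Cyria in newer annotation, encodes a protein that binds Rac1 and restrains actin-driven protrusion. Single-cell RNA counts measure RNA, not gene copies, and copy number was not measured in these files.

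Upstream sequences of Mycn and genes around it are shown because these genes lie near each other on chromosome 12. The RNAs of Mycn, Ddx1, Nbas and Fam49a chose the members, so their higher level there was set by the rule. Gm34237, also higher in members, was not used by the rule. Each sequence is the 250 bases before the transcription start, 5′ to 3′, from RefSeq on GRCm38.p6. For Gm34237 it is the first of 2 listed starts. Capitals mark matches, on either strand, to TTTGGCGC and TTTCGCGC, letter patterns bound by E2F factors. The E-box CACGTG, the pattern bound by Myc factors, was searched as well.
Mycn, chr12:12941837-12942086, minus strand: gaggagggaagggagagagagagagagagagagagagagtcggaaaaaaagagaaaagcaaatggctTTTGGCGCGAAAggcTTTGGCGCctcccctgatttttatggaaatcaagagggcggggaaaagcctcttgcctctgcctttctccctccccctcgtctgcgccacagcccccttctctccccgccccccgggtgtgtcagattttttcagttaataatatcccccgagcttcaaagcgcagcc
Ddx1, chr12:13249175-13249424, minus strand: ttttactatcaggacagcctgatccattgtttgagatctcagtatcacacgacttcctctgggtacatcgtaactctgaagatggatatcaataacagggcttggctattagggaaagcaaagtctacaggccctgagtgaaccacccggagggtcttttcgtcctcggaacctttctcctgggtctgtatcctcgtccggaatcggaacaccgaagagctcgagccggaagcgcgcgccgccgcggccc
Nbas, chr12:13268877-13269126, plus strand: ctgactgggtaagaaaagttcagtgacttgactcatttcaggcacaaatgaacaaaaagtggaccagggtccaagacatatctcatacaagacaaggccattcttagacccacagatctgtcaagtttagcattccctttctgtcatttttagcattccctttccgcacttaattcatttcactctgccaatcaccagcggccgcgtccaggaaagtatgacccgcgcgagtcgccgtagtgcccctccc
Fam49a, chr12:12261927-12262176, plus strand: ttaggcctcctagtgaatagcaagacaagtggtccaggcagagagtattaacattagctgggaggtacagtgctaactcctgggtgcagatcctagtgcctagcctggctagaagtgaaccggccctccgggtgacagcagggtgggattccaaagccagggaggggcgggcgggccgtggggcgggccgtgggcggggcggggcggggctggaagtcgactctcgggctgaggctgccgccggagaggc
Gm34237, chr12:11826235-11826484, plus strand: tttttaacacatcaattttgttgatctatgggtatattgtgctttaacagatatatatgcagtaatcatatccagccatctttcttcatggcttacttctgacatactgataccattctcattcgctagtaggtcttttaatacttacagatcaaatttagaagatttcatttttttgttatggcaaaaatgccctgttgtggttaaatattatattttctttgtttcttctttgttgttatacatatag
The Mycn window held 2 matches to TTTGGCGC and 1 to TTTCGCGC on the other strand, which overlapped the first TTTGGCGC match. None of the windows of Ddx1, Nbas, Fam49a or Gm34237 held any of the 3 patterns, and no CACGTG was in the Mycn window. Of 32851 promoter windows of this length, 0.417% held TTTGGCGC, 0.256% held TTTCGCGC and 6.02% held CACGTG. A match is only a description of these letters.

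The 4 genes of the rule are described without a test, because they chose the cells. Mycn had 134 CPM (UMIs of a gene per 1000000 UMIs) summed over the members, with a median of 1 UMI per cell and a highest value of 27, and 0 in the other tumour cells by construction. Of the members, 167 held exactly 1 Mycn UMI and 61 held more. Ddx1 had 581 CPM in members and 122 CPM in other tumour cells. Nbas had 491 CPM in members and 71.8 CPM in other tumour cells. Fam49a had 403 CPM in members and 61.2 CPM in other tumour cells. Per cell, the 3 genes together had a lowest value of 4, a median of 8 and a highest value of 240 UMIs in members, against a median of 1 and a highest value of 56 in other tumour cells. The 2 groups overlapped, because a cell without a Mycn UMI could hold many UMIs of its neighbours. Members were sequenced more deeply, with a median of 10395 UMIs against 4666 in other tumour cells, and a rule on UMI counts favours deep cells.

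The threshold cut through a continuum. The 47 members with exactly 4 summed UMIs of Ddx1, Nbas and Fam49a held Gm34237, a lncRNA gene 1.12 Mb from Mycn (between transcription starts) that the rule did not use, at 16.7 CPM, and 9 of them lay in the 2 clusters described below. The 51 gated cells just outside, with a Mycn UMI and a sum of 3, held it at 16.1 CPM, and 5 lay in those clusters. The 103 members with a sum of 10 or more held it at 977 CPM, and 84 lay in those clusters.

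The RNA of genes next to Mycn that the rule did not use was far higher in members. Gm34237 (chr12:11826607-11897726) had 446 CPM in members and 14.4 CPM in other tumour cells, a ratio of 31.0 (28.3 to 33.9). Gm47833, a second lncRNA gene (chr12:11781535-11792951), had 81.2 CPM in members and 2.63 CPM in other tumour cells, a ratio of 30.8 (24.9 to 38.2). 4930519A11Rik, a lncRNA gene 0.0392 Mb from Mycn, had 8.62 CPM in members and 0.251 CPM in other tumour cells. That ratio of 34.4 (17.1 to 71.9) rested on 24 and 14 UMIs. Fam84a, a protein-coding gene 1.21 Mb beyond Mycn on the other side, had 19.4 CPM in members and 5.35 CPM in other tumour cells, a ratio of 3.62 (2.66 to 4.85). 4921511I17Rik had 8.98 CPM in members and 1.25 CPM in other tumour cells, but it overlaps Fam49a on the other strand and its reads may not be separable.

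The raised stretch had edges. Of 26 genes within 5 Mb of Mycn that the rule did not use and that reached 5 CPM in either group, 7 were at least 2-fold higher in members and 0 were 2-fold lower. Over all genes at that level, 3.54% were 2-fold higher and 1.48% 2-fold lower. Smc6, a gene of the structural maintenance of chromosomes complex 1.68 Mb from Mycn and the nearest well-detected gene beyond Gm47833, had 245 CPM in members and 221 CPM in other tumour cells, a ratio of 1.11 (1.03 to 1.20). Gen1, a resolvase gene that starts beside Smc6, had 15.8 CPM in members and 7.59 CPM in other tumour cells, a ratio of 2.08 (1.49 to 2.84), but its log2 ratio was −0.033 with other tumour cells weighted to the members' clusters. On the far side, Trib2, 2.88 Mb away, had a ratio of 1.12 (0.810 to 1.51). Odc1, the rate-limiting enzyme gene of polyamine synthesis and a known Myc target, 4.60 Mb away, had 136 CPM in members and 133 CPM in other tumour cells, a ratio of 1.02 (0.915 to 1.13). Greb1, 3.86 Mb away, had 10.1 CPM in members and 2.69 CPM in other tumour cells, with genes at ratios near 1 on both sides of it, and a log2 ratio of −0.12 within the 3 sub-clusters described below. The other genes of this window, from Ldah to Hpcal1, had ratios of 0.678 to 1.13. Chromosome 12 outside the window summed to 0.937 times its level in other tumour cells. That was the lowest value of all chromosomes, which ranged from 0.937 to 1.07.

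**Figure D1:**
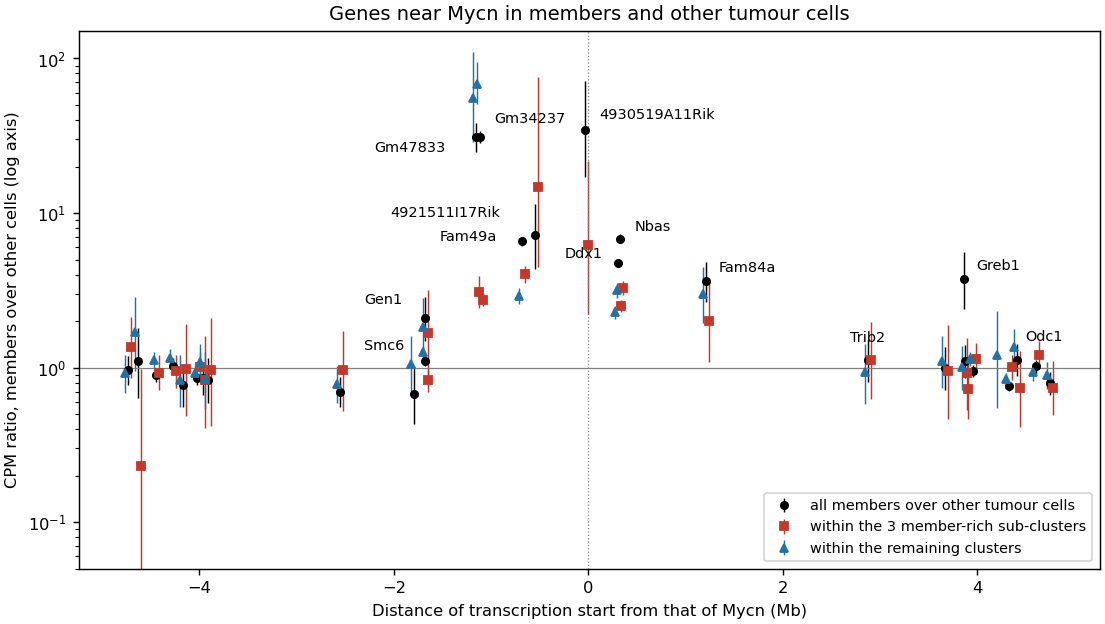
The ratio of CPM in members over other tumour cells (log axis) is plotted for each gene within 5 Mb of Mycn against the distance of its transcription start from that of Mycn, with 95% counting intervals. The 3 points of a gene are set slightly apart sideways. Black circles are all cells, red squares the 3 sub-clusters rich in members and blue triangles the clusters outside the 2 rich in members. Over all cells (black), ratios well above 1 lie between Gm47833 and Fam84a, and outside that stretch at Greb1 and Gen1. Smc6 and Odc1 lie near 1 over all cells.

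Choosing and measuring on the same UMIs can by itself raise the chosen genes, so each UMI was assigned at random to set 1 or set 2, with members chosen on set 1 and measured on set 2. Set 1 gave 145 members, 126 of them among the 228, and 10211 other tumour cells. In set 2 Mycn, which was then free to vary, had 92.8 CPM in members and 7.76 CPM in other tumour cells, a ratio of 11.96 (9.15 to 15.5). Gm34237 had 501 CPM in members and 23.5 CPM in other tumour cells. Smc6 had 224 CPM in members and 222 CPM in other tumour cells, a ratio of 1.01 (0.868 to 1.16). The ratios of Ddx1, Nbas and Fam49a were 4.71, 6.77 and 6.31.

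The members were not 1 kind of cell. When all cells were clustered with the genes within 5 Mb of Mycn left out, 124 members fell into 2 clusters in which they were at least 10% of the gated cells. In the first, led by Igfbpl1, Nrxn3 and Lrrtm4, 51 of 360 gated cells were members (14.2%). In the second, led by Dcc, Sgcd and Galntl6, 73 of 426 were members (17.1%). The second was cycling, with Top2a, the mitotic topoisomerase gene, at 1546 CPM against 90.6 CPM in the first. The remaining 104 members were spread over clusters high in Krt8, a simple epithelial keratin gene. Of these, 43 lay in a cycling cluster led by histone and Aurkb genes and 27 in a cluster led by heat shock genes. Clusters led by T cell, macrophage and immunoglobulin genes held 3, 3 and 1 members, although each member had no Ptprc UMI. Members of the 2 rich clusters had a median of 8459.5 UMIs, against 5170 in the other tumour cells there. Members of the remaining clusters had a median of 14168 UMIs, against 4645 in the other tumour cells there.

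Gm34237 separated the 2 kinds of members. It had a UMI in 114 of the 124 members of the 2 rich clusters and in 15 of the 104 others. After thinning every cell to 2000 UMIs, its share of cells with a UMI was 71.8% (63.0% to 79.5%) in members of the rich clusters and 18.2% (15.0% to 21.7%) in other tumour cells there. In the remaining clusters it was 8.65% (4.03% to 15.8%) in members and 0.167% (0.0937% to 0.276%) in other tumour cells. Ptprc-positive barcodes served as the comparison for free RNA, although they held tumour RNA as well, with Krt8 in 48.5% of them (42.4% after thinning) at 1086 CPM and Gm34237 at 37.6 CPM. Among these 716 Ptprc-positive barcodes, with a median of 4451 UMIs, the thinned share was 1.18% (0.510% to 2.31%), and the share without thinning was 2.65%. In tumour cells without thinning, it was 91.9% in members and 30.2% in other tumour cells of the rich clusters, and 14.4% in members and 0.354% in other tumour cells of the remaining clusters. Thinning left out 27 of 560 other tumour cells in the rich clusters, 349 of 9309 in the remaining clusters, 37 Ptprc-positive barcodes and no member. Both member shares lay above the share in Ptprc-positive barcodes, and the share of other tumour cells in the remaining clusters did not. The comparison was uneven, since members were chosen by UMIs of genes near Gm34237 and Ptprc-positive barcodes were not. The 15 members of the remaining clusters with a Gm34237 UMI held Krt8 at 1128 CPM and Dcc at 264 CPM. The part of free RNA or doublets in the member shares was not tested.

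**Figure D2:**
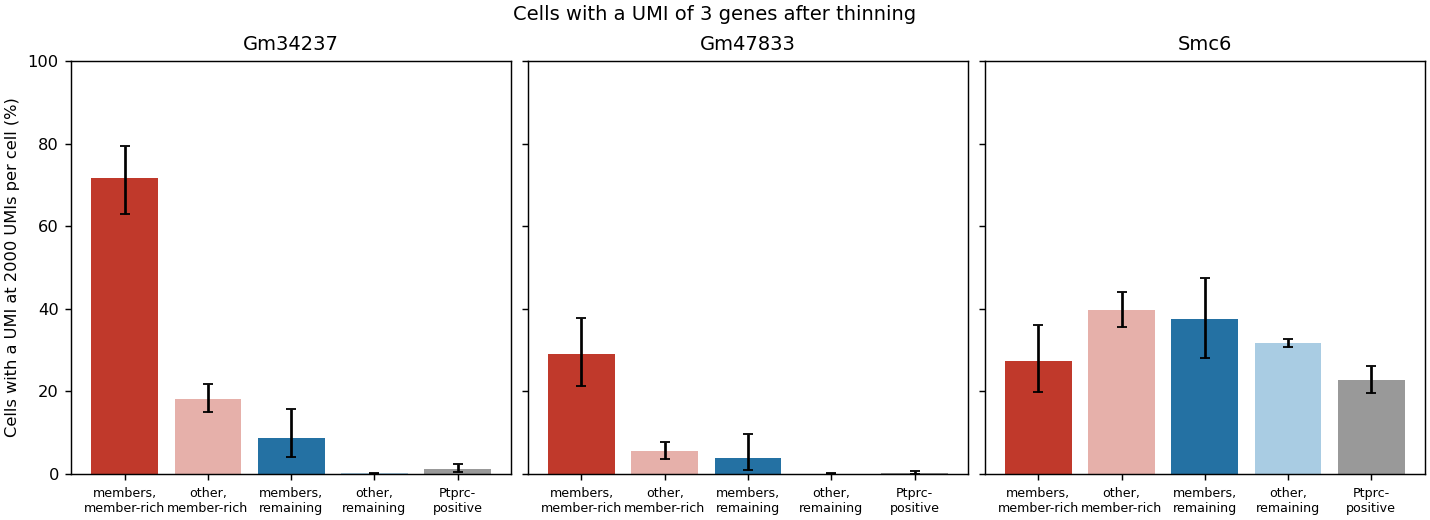
Each bar is the percentage of cells with at least 1 UMI of Gm34237, Gm47833 or Smc6 after thinning to 2000 UMIs per cell, with 95% Clopper-Pearson intervals, for members and other tumour cells of the 2 member-rich clusters, the same of the remaining clusters, and Ptprc-positive barcodes. Gm34237 stands at 71.8% in members of the rich clusters, while the Smc6 bars differ far less between groups.

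Cell by cell, the RNA of Gm34237 and Gm47833 together varied widely among members. In the 2 rich clusters it had a median of 7.02 UMIs per 10000 UMIs of the cell, with quartiles of 3.44 and 15.2 and a highest value of 61.2, and 5 of 124 members had none. Other tumour cells of the same clusters had a median of 0 and a highest value of 54.8, and 371 of 560 had none. The ranges of these groups overlapped. Among the 124 members, the per-cell level of Gm34237 had a Spearman correlation of 0.43 with that of Gm47833, −0.07 with that of Smc6 and 0.05 with that of Odc1, none of them genes of the rule. These correlations share library and depth and describe cells of 1 library only. A single member outside the rich clusters stood apart from its own cluster, with 27 Mycn UMIs, 84 of Ddx1, 73 of Nbas, 83 of Fam49a and 24 of Gm34237 among 17531 UMIs, and 1 of Smc6. Without it, Fam49a in the 103 other members of the remaining clusters was 117 CPM in place of 165 CPM.

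**Figure D3:**
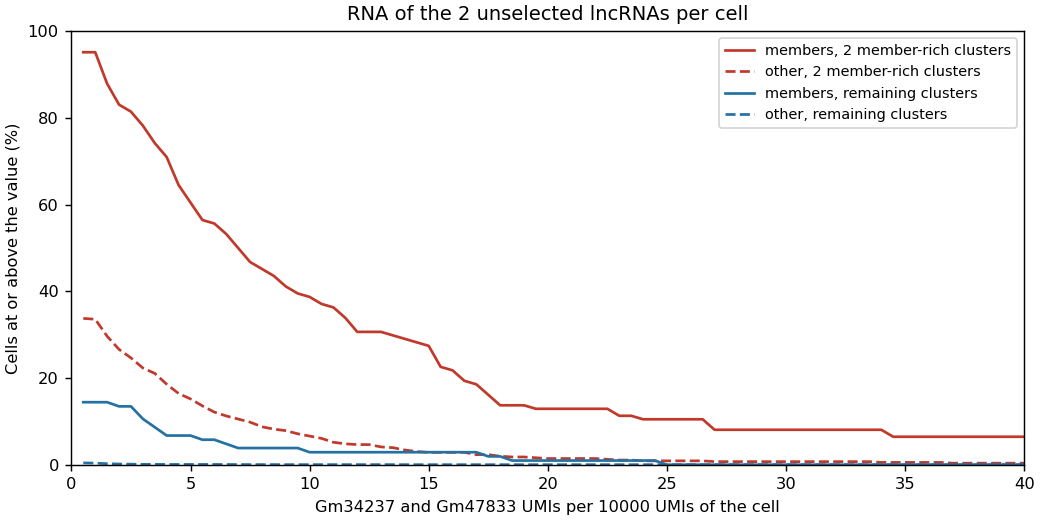
Curves give the percentage of cells (vertical axis) whose summed Gm34237 and Gm47833 UMIs per 10000 UMIs reach at least the value on the horizontal axis. Members of the 2 member-rich clusters (solid red) lie above other tumour cells there (dashed red), and both lie above the members of the remaining clusters (solid blue) and the other tumour cells there (dashed blue) over the lower values. The horizontal axis ends at 40.

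Within the 2 rich clusters the pattern narrowed further. Their 786 gated cells were clustered again without the window, and 113 of the 124 members lay in 3 of 7 sub-clusters. Members were 46 of 228, 18 of 76 and 49 of 172 cells there. Over all gated cells of these 3 sub-clusters, Gm34237 stood at 631, 459 and 629 CPM. Krt8 was low in each, at 7.79, 36.0 and 35.3 CPM. Dcc, the gene of the netrin receptor of axon guidance, stood at 464, 368 and 483 CPM. Another sub-cluster, of 162 cells, led by Cntn5, Kcnip4 and Wfdc2, held 6 members, with Gm34237 at 29.1 CPM, Krt8 at 634 CPM and Epcam, an epithelial adhesion gene, at 2333 CPM. One of 103 cells, led by Flt1 and the immediate-early genes Egr3 and Egr1, held 5 members, with Gm34237 at 270 CPM. The 2 smallest, of 23 and 22 cells, held neither a member nor a Gm34237 UMI. Sub-clusters were drawn from these same cells, so their differences are a description.

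A Mycn UMI did not mark all cells of those 3 sub-clusters that carried the pattern. Gm34237 had a UMI in 107 of the 113 members (94.7%) and in 159 of the 317 other tumour cells there (50.2%). Gm34237 had 1040 CPM in members and 379 CPM in other tumour cells there, a ratio of 2.74 (2.49 to 3.02). Nbas had 970 CPM in members and 298 CPM in other tumour cells of the 3 sub-clusters. Smc6 had 193 CPM in members and 233 CPM in other tumour cells there, a ratio of 0.830 (0.698 to 0.985). Of 25 measured neighbours the rule did not use, 4 were 2-fold higher and 1 lower, against 2.25% and 3.6% of all genes. In the whole gated library, 379 cells held a Gm34237 UMI, of which 308 lay in the 2 rich clusters and 129 were members.

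Across all genes, more were higher than lower in members. Of 7882 genes with at least 20 CPM in the higher group, 183 were at least 2-fold higher in members (2.32%) and 28 were 2-fold lower (0.355%). The 12 highest outside the Mycn window, ranked after adding 1 CPM to both sides, were Galntl6, Grik2, Myt1l, Csmd1, Sgcd, Dcc, Stmn4, Cnksr2, Zic5, Ndn, Sema6d and Igfbpl1. Dcc had 199 CPM in members and 20.8 CPM in other tumour cells, a ratio of 9.59 (8.65 to 10.6). Igfbpl1, a gene of the insulin-like growth factor binding protein family, had 138 CPM in members and 17.1 CPM in other tumour cells, a ratio of 8.07 (7.15 to 9.09). Grik2, a kainate glutamate receptor gene, had 71.8 CPM in members and 5.14 CPM in other tumour cells, a ratio of 13.97 (11.6 to 16.8). Myt1l, a neuronal transcription factor gene on chromosome 12 outside the 5 Mb window, had 49.2 CPM in members and 3.31 CPM in other tumour cells, a ratio of 14.9 (11.8 to 18.6). Galntl6, of the family of O-glycosylation enzymes, had 90.9 CPM in members and 6.21 CPM in other tumour cells. On the list of neural and adhesion genes, 4 of 14 measured genes were at least 1.5-fold higher and 0 lower, against 8.38% of all genes with at least 5 CPM higher and 6.61% lower, with a median log2 ratio of 0.21. In the 3 sub-clusters 2 of 15 were higher and 0 lower, against 7.82% and 9.71% of all genes, with a median of −0.070.

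The 12 genes differed within the clusters to unequal degrees. Of the other tumour cells' Dcc UMIs, 76.6% came from the 560 cells in the 2 rich clusters. Within the 3 sub-clusters, Dcc had 468 CPM in members and 449 CPM in other tumour cells, Zic5, a zinc finger gene of neural development, had 57.1 CPM in members and 57.9 CPM in the others, and Igfbpl1 had 330.0 CPM in members and 378 CPM in the others. Galntl6 kept a difference there, with 221 CPM in members and 91.7 CPM in other tumour cells, a ratio of 2.41 (1.96 to 2.95). Csmd1, a gene of a CUB and Sushi domain protein, did as well, with 105 CPM in members and 45.6 CPM in other tumour cells. Myt1l, Grik2 and Sema6d, a semaphorin gene, had smaller ratios above 1 there, of 1.75 (1.35 to 2.27), 1.44 (1.17 to 1.79) and 1.41 (1.07 to 1.85). In the remaining clusters the CPM of all 12 was higher in members, with ratios from 4.02 for Sema6d to 17.1 for Ndn, which rested on 13 UMIs in members and 24 in other tumour cells. Dcc had 34.7 CPM in members and 5.13 CPM in other tumour cells there, a ratio of 6.77 (5.01 to 9.01). In the 89 of these members without a Gm34237 UMI, Cnksr2 had 0 UMIs. The ratios of the other genes among the 12 ran from 0.465 for Grik2 to 2.51 for Myt1l, which rested on 1 and 4 UMIs in the 89. Dcc stood at 4.07 CPM in the 89 and at 264 CPM in the 15 members with a Gm34237 UMI. Of the 177 genes called higher outside the window over all cells, 15 were also called within the 2 rich clusters and 36 within the remaining clusters. Within the 2 rich clusters, 57 of 7752 genes were 2-fold higher (0.735%) and 197 lower (2.54%). In the 3 sub-clusters, 49 of 7524 were 2-fold higher (0.651%) and 46 lower (0.611%). The highest there outside the window was Nupr1, a stress-response gene, with 46.3 CPM in members and 3.75 CPM in other tumour cells.

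**Figure D4:**
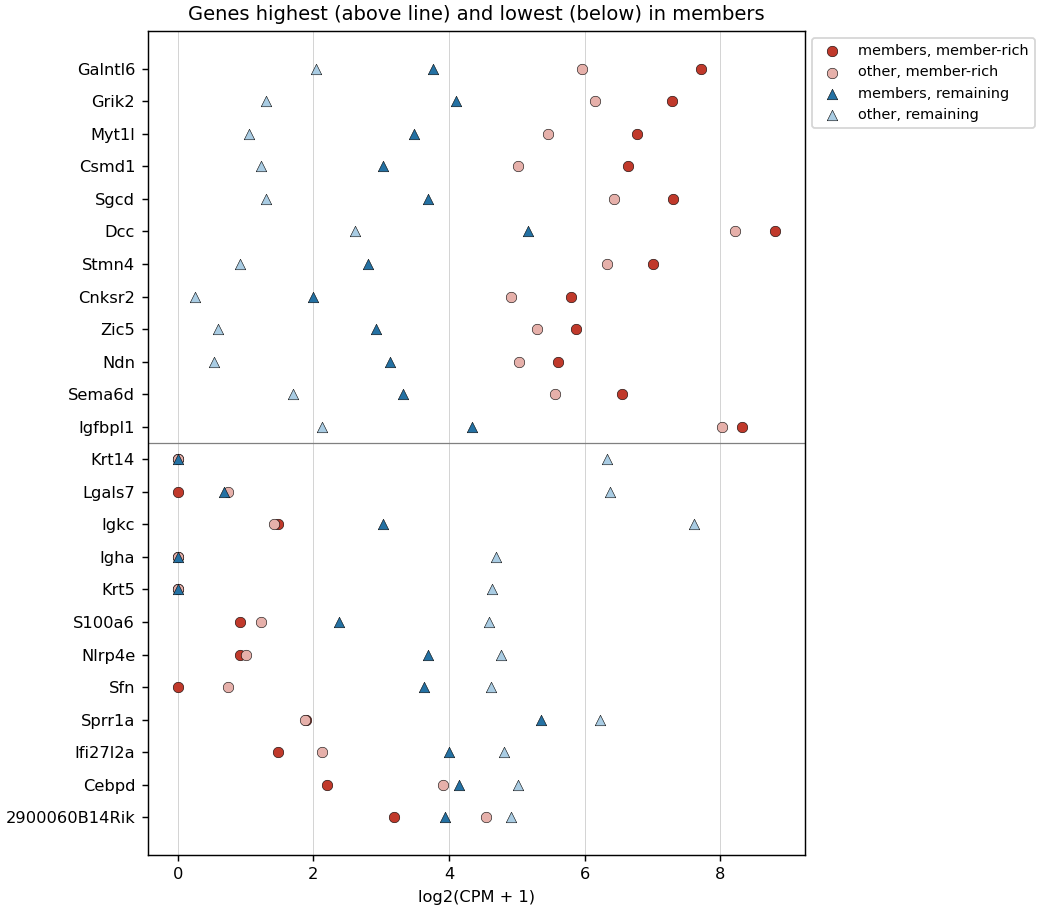
Levels as log2(CPM + 1) are shown for the 12 genes with the highest and the 12 with the lowest ratio in members outside the Mycn window. Circles are the 2 member-rich clusters and triangles the remaining clusters, with members dark and other tumour cells light. For the upper genes both circles lie far right of the triangles.

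Of the 12 genes lowest in members, 6 had most of their UMIs in other tumour cells in 1 small cluster. Krt14, a basal keratin gene, had 0 UMIs in members and 74.9 CPM in other tumour cells, which makes it at least 69.5-fold lower against a floor of 3 UMIs over the group. A single cluster of 27 other tumour cells held 99.7% of its UMIs there, and also 97.9% of those of Lgals7, a galectin of stratified epithelium, 99.8% of those of Krt5 and 86.4% of those of S100a6. Igkc and Igha, immunoglobulin chain genes, had 96.5% and 93.4% of their UMIs in other tumour cells in 14 cells of a cluster led by immunoglobulin genes. Of the lowest 12, Nlrp4e, Sfn, Sprr1a, Ifi27l2a, Cebpd and 2900060B14Rik were spread over more cells, each with a UMI in at least 542 other tumour cells, although the same 27 cells held 40.9% of the UMIs of Sfn. Sprr1a, a cornified envelope gene, had 25.1 CPM in members and 69.9 CPM in other tumour cells, a ratio of 0.360 (0.280 to 0.456). Cebpd, a stress-induced transcription factor gene, had 11.5 CPM in members and 30.3 CPM in other tumour cells.

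Cell division genes were higher in members. Of 20 genes of G2 and M phase, 20 were at least 1.5-fold higher, against 8.38% of all genes with at least 5 CPM, and the median log2 ratio was 0.93, against 0.0017 for all genes. Birc5, which encodes survivin of the chromosomal passenger complex, had 419 CPM in members and 152 CPM in other tumour cells. Kif11, a mitotic spindle motor gene, had 193 CPM in members and 77.1 CPM in other tumour cells. The 20 S phase genes had a median of 0.25, with 3 higher and 0 lower. Members were the deeper cells, and 73 of them lay in the cycling cluster led by Dcc and 43 in the cycling cluster led by histone genes. Within the 3 sub-clusters, 4 of the 20 G2 and M genes were 1.5-fold higher and 0 lower, with a median of 0.38, where 7.82% of all genes were higher and 9.71% lower. With other tumour cells weighted to the members' shares of clusters, the median was −0.29.

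Growth genes known as Myc targets had positive medians over all cells. Of 24 nucleolar genes, 3 were 1.5-fold higher in members and 0 lower, against 8.38% of all genes higher and 6.61% lower, and their median log2 ratio was 0.30. Npm1, the nucleolar chaperone gene, had 713 CPM in members and 483 CPM in other tumour cells. Of 20 genes of nucleotide and polyamine synthesis, 4 were higher and 0 lower, with a median of 0.34. Srm, the spermidine synthase gene, had 42.0 CPM in members and 24.4 CPM in other tumour cells. In the 3 sub-clusters the medians were 0.061 for the nucleolar genes, with 1 higher and 2 lower, and 0.24 for the synthesis genes, with 1 higher and 1 lower, against 7.82% of all genes higher and 9.71% lower. In the remaining clusters 0 of 24 nucleolar genes were higher and 1 lower, with a median of 0.018, against 0.036 for all genes. Of the 20 synthesis genes there, 1 was higher and 0 lower, with a median of 0.13. Of all genes there, 5.39% were higher and 3.89% lower. The 20 cytosolic ribosomal protein genes had a median of 0.17 over all cells, and 0 of them reached 1.5-fold.

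Epithelial genes were lower in members over all cells and within the 2 rich clusters. Of 12 measured genes, 8 were 1.5-fold lower and 0 higher, against 6.61% of all genes lower, with a median log2 ratio of −0.63. Krt8 had 1061 CPM in members and 2057 CPM in other tumour cells. Epcam had 1097 CPM in members and 1691 CPM in other tumour cells. In the 2 rich clusters Krt8 was 118 CPM in members and 194 CPM in other tumour cells, and 11 of 12 epithelial genes were 1.5-fold lower and 0 higher, with a median of −1.28, where 14.1% of all genes were lower and 6.71% higher. In the remaining clusters Krt8 was 1689 CPM in members and 2162 CPM in other tumour cells. Of 13 measured epithelial genes there, 1 was lower and 0 higher, with a median of −0.054, against 3.89% of all genes lower and 5.39% higher. In the 3 sub-clusters Krt8 was 32.5 CPM in members and 13.9 CPM in other tumour cells. There 2 of 7 measured epithelial genes were higher and 0 lower, with a median of 0.22, against 7.82% of all genes higher and 9.71% lower. Of 15 genes of class I antigen presentation, 5 were lower and 0 higher, with a median of −0.46. H2-K1, a classical class I heavy chain gene, had 166 CPM in members and 287 CPM in other tumour cells. Of 12 type I interferon genes, 4 were lower and 0 higher. Within the 3 sub-clusters 3 of 11 class I genes and 3 of 6 interferon genes were lower and 0 higher. Of all genes there, 9.71% were lower and 7.82% higher. In the remaining clusters 1 of 16 class I genes was lower and 1 higher, with a median of −0.051. Of 14 interferon genes there, 1 was lower and 0 higher, with a median of −0.016. Of all genes in the remaining clusters, 3.89% were lower and 5.39% higher.

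**Figure D5:**
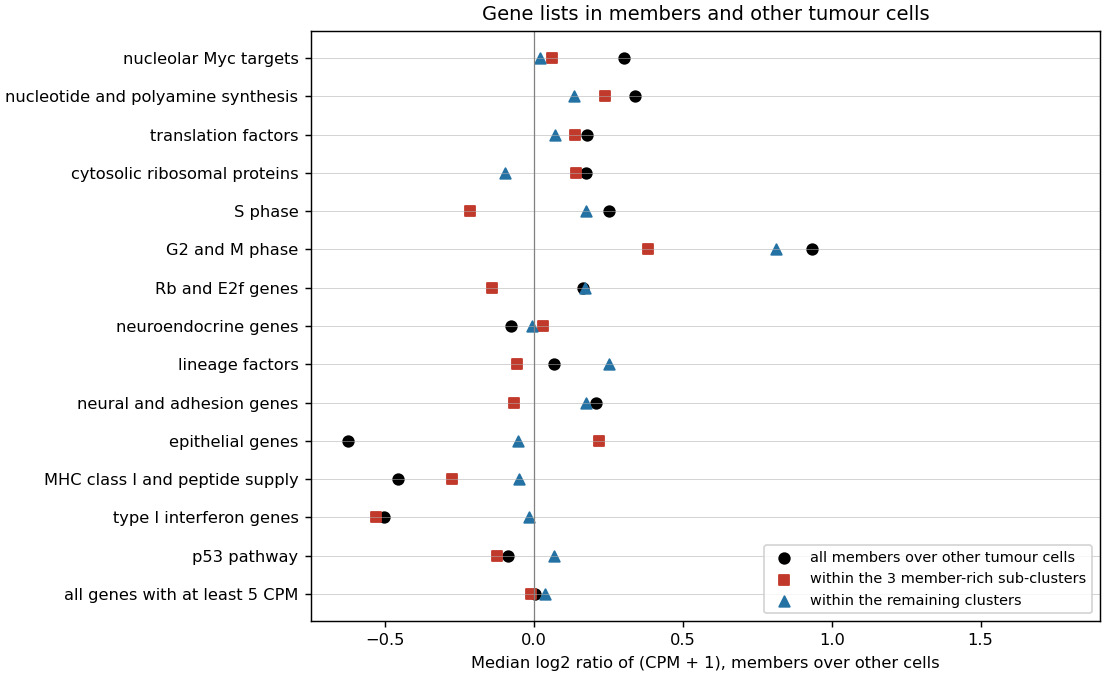
The median log2 ratio of CPM + 1, members over other tumour cells, is shown for 14 gene lists and for all genes with at least 5 CPM. Black circles are all cells, red squares the 3 sub-clusters rich in members and blue triangles the clusters outside the 2 rich in members. The G2 and M phase list stands at 0.93 over all cells and the epithelial list at −0.63.

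Over all cells, neuroendocrine genes differed by 1.5-fold about as often as all genes. Of 25 neuroendocrine genes, 2 were 1.5-fold higher and 2 lower, against 8.38% of all genes higher and 6.61% lower. Their median log2 ratio was −0.078, and all 25 were detected in members. In the 2 rich clusters 1 was higher and 6 lower, against 6.71% and 14.1% of all genes. In the 3 sub-clusters 0 were higher and 1 lower, against 7.82% and 9.71%. Calca, the calcitonin gene, had 1916 CPM in members and 3308 CPM in other tumour cells. Insm1, a neuroendocrine transcription factor gene, had 256 CPM in members and 257 CPM in other tumour cells. Of 15 measured lineage factors, 6 were higher and 0 lower, against 8.38% of all genes higher, and in the 3 sub-clusters 0 of 16 were higher and 2 lower. Nfib, a transcription factor gene amplified in mouse small cell lung cancer, had 333 CPM in members and 150 CPM in other tumour cells, and within the 3 sub-clusters it had 574 CPM in members and 546 CPM in other tumour cells. Gm34237 RNA was found in 129 of the 228 members (56.6%). For the others the name Mycn-locus-high rests on the UMIs of the rule, without Gm34237 RNA.

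The 104 members of the remaining clusters divided by the same lncRNA. Gm34237 had 80.8 CPM in these members and 1.17 CPM in other tumour cells there. The 89 members without a Gm34237 UMI, with a median of 14294 UMIs, had 106 CPM of Nbas, against 63.8 CPM in other tumour cells, and 144 CPM of Ddx1, against 110 CPM in other tumour cells, levels that the rule used to choose them. Smc6, which the rule did not use, had 283 CPM in these members and 218 CPM in other tumour cells, a ratio of 1.30 (1.18 to 1.43). Fam84a, also not used by the rule, had 12.9 CPM in these members and 5.17 CPM in other tumour cells. Its ratio of 2.49 (1.48 to 3.97) rested on 19 UMIs in these members. Of 22 measured neighbours the rule did not use, Fam84a was the 1 at least 2-fold higher, and 0 were 2-fold lower. The 2-fold share of all genes is not given for the 89, and over all 104 it was 1.54% higher and 1.23% lower. Dcc had 4.07 CPM in the 89 members without a Gm34237 UMI and 5.13 CPM in other tumour cells, a ratio of 0.793 (0.289 to 1.75). Of the 20 G2 and M genes, 17 were 1.5-fold higher and 0 lower in them, against 5.22% of all genes higher and 4.21% lower. Of 12 measured neural and adhesion genes, 0 were higher and 0 lower in them. Over all 104, 17 of the 20 were higher as well, against 5.39% of all genes higher and 3.89% lower. Of 24 measured neighbours the rule did not use, 3 were 2-fold higher and 0 lower over all 104, against 1.54% and 1.23% of all genes. By the stricter level of 20 CPM, 49 genes were 2-fold higher (0.63%) and 15 lower (0.193%).

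Macrophage, T cell and fibroblast RNA was higher in these members. C1qa, a complement gene of macrophages, had 25.1 CPM in members and 1.797 CPM in other tumour cells of the remaining clusters. Over all 8 macrophage markers the sum was 84.4 CPM in members and 6.36 CPM in other tumour cells there, and 8.09 CPM in members and 4.35 CPM in other tumour cells of the 2 rich clusters. Of the 8 markers, 4 were at 0 in members of the rich clusters and 0 were at 0 in members of the remaining clusters. Over 6 fibroblast markers the sum was 74.2 CPM in members and 27.6 CPM in other tumour cells of the remaining clusters, with 2 markers at 0 in members and most of the sum from Dcn, the decorin gene, at 70.6 CPM in members. Over 6 T cell markers it was 16.8 CPM in members and 4.05 CPM in other tumour cells there, with 2 markers at 0 in members. The comparison was uneven, since other tumour cells were held to fewer than 2 UMIs of host genes and members were not. Of the 38 members with 2 or more, 36 lay in the remaining clusters. With members held to the same limit, 190 were left, and 259 genes were 2-fold higher and 134 lower. The number of genes tested is not given for these 190, so these are counts without a share. The doublet caller Scrublet marked 3 members and 1.93% of the barcodes clustered, and the part of doublets in these values was not tested.

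The other Myc family genes were not 2-fold higher. Myc had 10.1 CPM in members and 18.8 CPM in other tumour cells, a ratio of 0.536 (0.355 to 0.780). Mycl had 12.2 CPM in members and 9.53 CPM in other tumour cells, a ratio of 1.28 (0.878 to 1.81). Pvt1, a lncRNA gene next to Myc, had 47.0 CPM in members and 20.1 CPM in other tumour cells, but the rule allowed other tumour cells at most 1 of its UMIs. Rb1 and Trp53, tumour suppressor genes, had ratios of 0.920 (0.838 to 1.01) and 0.918 (0.781 to 1.07). In the 3 sub-clusters Rb1 had 110.3 CPM in members and 169 CPM in other tumour cells, a ratio of 0.651 (0.520 to 0.811). Rbl2, a relative of Rb1, had 23.7 CPM in members and 15.7 CPM in other tumour cells.

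Cracd, listed as C530008M17Rik, is the gene whose knockout 1 allograft is labelled with. It had 33.4 CPM in members and 4.50 CPM in other tumour cells. Within the 3 sub-clusters it had 71.9 CPM in members and 56.3 CPM in other tumour cells, a ratio of 1.28 (0.935 to 1.74). Over gated cells, Cracd was 87.0 CPM in the library labelled preSC_CracdKO and 6.60 CPM in the library labelled preSC_WT, so its RNA level went against the labels. The deleted stretch is not given in the labels, and a 3′ count outside it checks nothing.

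Of the stretch, Gm34237, Gm47833, Fam49a, Nbas and Mycn had more RNA in the library labelled preSC_WT than in the other 3. Gated cells passing the same rule numbered 228 of 12337 in preSC_WT, 16 of 14961 in the library labelled preSC_CracdKO, 5 of 7705 in CRPR2 and 8 of 3375 in RPR2. Over gated cells, Gm34237 had 30.5 CPM in preSC_WT and 0.0283 CPM in preSC_CracdKO, from 3 UMIs. In the lung libraries it had 0 UMIs, where 3 UMIs would be 0.0614 CPM in CRPR2 and 0.116 CPM in RPR2. Fam49a had 72.4 CPM in preSC_WT, 9.14 CPM in preSC_CracdKO, 7.90 CPM in CRPR2 and 7.49 CPM in RPR2. Nbas had 86.3 CPM in preSC_WT, 40.9 CPM in preSC_CracdKO, 15.1 CPM in CRPR2 and 14.9 CPM in RPR2. Mycn had 9.08 CPM in preSC_WT, 1.802 CPM in preSC_CracdKO, 3.65 CPM in CRPR2 and 3.92 CPM in RPR2. Ddx1 had 138 CPM in preSC_WT, 135 CPM in preSC_CracdKO, 81.7 CPM in CRPR2 and 92.9 CPM in RPR2. The allograft libraries were counted over 31053 features and the lung libraries over 32285, and the effect of this on the values was not tested. The median depth of gated cells was 4243 to 6189 UMIs, and pairs of libraries shared 36 to 79 barcodes. Of the members, 3 had a barcode also found in RPR2. With 1 library a group, a difference between the labelled groups and one between single tumours cannot be told apart.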

How the data were processed

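The authors deposited, per the file headers, matrices of UMI counts per gene and barcode written by Cell Ranger, version 5.0.0 for the allografts and 6.1.2 for the lung tumours. Per the submitters' processing notes, reads were handled with Cell Ranger 6.1.2 on mm10, and the notes also list Scanpy 1.8.2. Here UMIs were added up over all cells in a group, divided by the total of that group and given as CPM. Cells with at least 300 genes were clustered without the genes within 5 Mb of Mycn, on the 50 leading principal components of 2000 variable genes, with 15 neighbours per cell and the Leiden method at resolution 1. This used 18468 barcodes. The 2 clusters in which members were at least 10% of gated cells were clustered again with 30 components at resolution 0.5. Doublets were marked by Scrublet but not removed.

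A ratio is CPM in members over CPM in other tumour cells, with an exact conditional binomial interval. Sums carry exact Poisson and shares exact Clopper-Pearson intervals, all at 95% and for counting error only, since cells of 1 library are not replicates and no p-value is given. Genes were called at 2-fold with at least 20 CPM in the higher group, neighbours at 2-fold with at least 5 CPM, and list genes at 1.5-fold with at least 5 CPM. List medians use log2 ratios after adding 1 CPM. For thinned shares, 2000 UMIs were drawn from each cell. Gene positions came from GENCODE on GRCm38, where 31011 of 31053 features matched by ID. Distances run between transcription starts, while the 5 Mb window ran between the genes' lowest coordinates and held 88 genes, against 89 by transcription starts, with 0 of the measured genes differing. The strand setting of the counting is not given in the sources used here. Named were the rule genes, neighbours within 5 Mb, the 12 highest and 12 lowest called genes, list members as examples, and Cracd, Rb1, Trp53, Rbl2, Myc, Mycl and Pvt1. Nupr1 was named after its value was seen. The members and lists were chosen with earlier results of these data known, and the splits by cluster and by Gm34237 were added after seeing the data. Software was Python 3.11.15, numpy 2.4.6, scipy 1.17.1, pandas 2.3.3, scanpy 1.11.5 and matplotlib 3.10.9. The summing and calling were tested on simulated counts.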

Additional observations from a re-analysis of the deposited data

How the results depend on the processing

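No paired analysis was possible because each group is 1 library and no result comes from a test. Members are the deeper cells, and 167 of 228 rest on a single Mycn UMI. The neighbours' count of 7 was 3 in the remaining clusters and 4 in the 3 sub-clusters, and the 228 members became 145 when chosen on 1 set of the UMIs. The number of genes 2-fold higher, 183, became 402 at 5 CPM, 326 by the mean of per-cell CPM, 299 against other tumour cells with no UMI of Ddx1, Nbas or Fam49a and 288 with a locus sum of at least 6. It was 57 in the 2 rich clusters, 49 in the 3 sub-clusters, 49 in the remaining clusters and 15 with other tumour cells weighted to the members' clusters. The number 2-fold lower, 28, became 168 at 5 CPM, 155 by the per-cell mean, 134 with members held to the host limit, 49 against other tumour cells with no locus UMI, 44 with other tumour cells not chosen by the host gate genes, 13 at a locus sum of at least 3, 192 at 6, 197 in the 2 rich clusters, 46 in the 3 sub-clusters, 15 in the remaining clusters and 6 when weighted by cluster. The number of genes tested changed as well, so these counts are not shares. It was 7882 over all cells, 7752 in the 2 rich clusters, 7524 in the 3 sub-clusters and 7772 in the remaining clusters. At 5 CPM it was 11362 over all cells, and for the other settings it is not given. Splits by cluster were chosen after seeing the data.

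Some log2 ratios of genes at least 2-fold apart over all cells changed sign. In the 3 sub-clusters they were −0.12 for Greb1, 0.99 for Ifi27l2a, −0.19 for Igfbpl1, 0.93 for Sprr1a and −0.019 for Zic5, where Ifi27l2a had 1 UMI in members and 0 in other tumour cells. In the 2 rich clusters they were 0.065 for Igkc and 0.0067 for Sprr1a, and in the remaining clusters −0.49 for 4921511I17Rik. Weighted by cluster they were −0.033 for Gen1 and −0.37 for Ube2c. Of genes less than 2-fold apart, Krt18 became 1.84 and Krt8 1.17 in the 3 sub-clusters, where over all cells they were −0.98 and −0.95, and Top2a became −0.34 when weighted by cluster, where it was 0.93. The list medians became −0.29 for G2 and M phase when weighted by cluster, 0.22 for epithelial genes in the 3 sub-clusters and −0.61 for the host gate genes when these did not choose the other tumour cells. The cause was not tested.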
